A study of Mus musculus with 9 samples.

Results

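The subject here is the set of nuclear genome positions at which reads of 28 to 32 nt began, a length range that holds tRNA-halves and fragments of other structured RNAs rather than mature miRNAs. Reads that aligned to the mitochondrial chromosome were left out, the remaining reads of this length were summed by the position and strand of their 5′ end, and a 5′ end was kept when its total over the 9 libraries was at least 50 reads. The rule kept 6280 of 355968 nuclear 5′ ends with reads of this length, and of 2954434 5′ ends of any length and chromosome. The totals are given only as a description: they ran from 50 to 127895 reads with a median of 139.8, and 66 of the 5′ ends had at least 10000. They were chosen by these totals alone, with no regard to RNA class or library. Just inside the limit, 5′ ends at chr8:15520089, chr3:82836097 and chr9:40611666 (mm9) had 50 reads each. Just outside it, those at chr15:7143522, chr9:123371131 and chr11:95942470 had 49.8 each. The retained 5′ ends held from 83.6% of the nuclear 28 to 32 nt reads in TruSeq liver to 95.3% in NEXTflex liver.

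The study asked how the kit used to prepare a small RNA library changes what is measured. RNA of MIN6 cells, a mouse insulinoma line used as a model of the pancreatic beta cell and grown in medium with 25 mM glucose and 10% serum, was prepared 3 times with the Illumina v1.5 kit and 3 times with the Illumina TruSeq kit and sequenced on a GAIIx. A single MIN6 library was prepared with the Bioo Scientific NEXTflex V2 kit, whose adapters carry random bases at the ligation junction, and sequenced on a HiSeq at another facility. The RNA of the liver of 1 saline-injected, fasted female C57BL/6J mouse was prepared with TruSeq and with NEXTflex, 1 library each. MIN6 is a tumor-derived line of 1 cell type, whereas the liver holds several cell types of 1 animal. The labels do not say whether the 3 libraries of a MIN6 group came from separate cultures, although the study calls them biological replicates, so the p-values measure only the spread between these libraries. The RNA of the NEXTflex MIN6 library was that of a TruSeq library not analysed here. The methods name a Norgen kit or TRIzol for the extraction of MIN6 RNA, depending on the centre, and a Norgen kit for liver. NEXTflex and TruSeq in MIN6 thus differ in RNA, platform and facility, and possibly in extraction, as well as in kit. TruSeq liver and TruSeq MIN6 differ in platform, and possibly in extraction and facility, as well as in source. These factors cannot be told apart.

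The deposited counts summed to between 6923460 and 12458630 in the 3 TruSeq MIN6 libraries, to between 10800301 and 13158853 in the 3 v1.5 libraries, and to 25638872 in NEXTflex MIN6, 17875869 in TruSeq liver and 14426009 in NEXTflex liver. The longest read was 32 nt in the 6 GAIIx libraries, 39 nt in both NEXTflex libraries and 41 nt in TruSeq liver. RNAs over 32 nt could thus be seen only in the 3 HiSeq libraries. Reads of 32 nt were nearly absent from the GAIIx libraries, at 0.116% to 0.362% of the nuclear 28 to 32 nt reads. They made up 22.6% in NEXTflex MIN6, 31.7% in TruSeq liver and 19.9% in NEXTflex liver. Every comparison of GAIIx with HiSeq libraries within 28 to 32 nt carries this difference. Of the fixed marker miRNAs that could be located, miR-7a-5p and miR-200a-3p of beta cells summed to between 1430 and 250137 RPMM (reads per 1000000 mapped reads) in the 7 MIN6 libraries and to 8.07 and 679 RPMM in TruSeq and NEXTflex liver, of which miR-7a-5p made up 678 RPMM in the latter. The hepatocyte markers miR-192-5p and miR-802-5p summed to between 587 and 1479 RPMM in MIN6 and to 82759 and 6885 RPMM in TruSeq and NEXTflex liver. No 5′ end was matched to the sequences of the blood markers miR-451a and miR-142a-3p, which gives no level for them, and miR-126a-3p of endothelium was at 463 and 1884 RPMM in TruSeq and NEXTflex liver. The other 5 markers, miR-375-3p and miR-122-5p among them, were not analysed here.

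Transfer RNAs carry amino acids to the ribosome. When a cell is stressed, the ribonuclease angiogenin cuts mature tRNAs in the anticodon loop, which leaves 5′ tRNA-halves that begin at the first base of the tRNA and 3′ tRNA-halves that end at its CCA tail. Fragments of the 5′ part of the tRNAs for glycine, glutamate and valine are known as abundant small RNAs of mammalian tissues and serum. Small nucleolar RNAs (snoRNAs) guide the modification of ribosomal RNA, Y RNAs bind the Ro60 protein, and small nuclear RNAs (snRNAs) build the spliceosome. Transfer RNAs also hold many modified bases, at which reverse transcriptase may stop or insert a wrong base.

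The sequences below are the first 32 bases downstream of the 5′ ends on which the results turn, 1 genomic copy each, in the mm9 build. The deposited alignments hold no read sequence but report the reads' bases at mismatches, and each genomic base was taken as the letter left over once the mismatching letters seen at that position, over all copies, were known. An n marks a base that this did not settle, and capitals mark a site at which a mismatch was present in at least 1% of the tRNA reads of a library. Names give the RNA and the base of it at which reads began, and 5′ ends with the same sequence, among which the authors had divided a read that aligned to several places, were summed as a sequence group (3524 groups in all).
Gly tRNA base 1: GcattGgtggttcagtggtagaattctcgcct
Val tRNA base 1: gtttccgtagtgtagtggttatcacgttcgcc
Val tRNA base 5: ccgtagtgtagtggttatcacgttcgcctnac
Lys tRNA base 1: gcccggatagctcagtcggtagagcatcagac
Pro tRNA base 1: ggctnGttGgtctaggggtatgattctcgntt
Leu tRNA base 1: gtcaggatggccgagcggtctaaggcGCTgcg
Ala tRNA base 3: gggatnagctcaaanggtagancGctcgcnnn
His tRNA base -1: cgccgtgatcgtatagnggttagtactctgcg
Ile tRNA base 28: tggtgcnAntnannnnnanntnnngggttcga
Rny1 base 1: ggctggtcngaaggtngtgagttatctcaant
Rny1 base 83: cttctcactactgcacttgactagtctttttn
Snord2 base 37: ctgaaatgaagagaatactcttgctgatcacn
Gm25789 base 44: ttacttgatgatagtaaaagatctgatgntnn
Gm42418 base 239: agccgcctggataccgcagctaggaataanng
chr5:147072600+: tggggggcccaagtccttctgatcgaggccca
chr14:30256408+: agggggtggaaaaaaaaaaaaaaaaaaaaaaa
The Gly sequence is the 5′ part of the tRNA with the anticodon GCC and is shown from chr1:74863360-74863391 on the minus strand, 1 of 11 copies retained. The Val sequences start 4 bases apart on the same tRNA (anticodons AAC and CAC), shown from chr1:173041574-173041605 and chr1:173041578-173041609 on the plus strand. The Lys tRNA-half (CUU) from chr1:134930945-134930976 on the minus strand, the Pro tRNA-half (AGG, CGG and UGG) from chr7:105963925-105963956 on the plus strand and the Leu tRNA-half (CAG) from chr1:172968745-172968776 on the plus strand. The Ala (AGC), His (GUG) and Ile (AAU) sequences are from chr13:23377520-23377551, plus strand, chr2:122201271-122201302, minus strand, and chr11:68850532-68850563, plus strand. Both Rny1 sequences are ends of the same Y RNA, from chr6:47738148-47738179 and chr6:47738066-47738097 on the minus strand, in no other gene.

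The chr14 sequence, from chr14:30256408-30256439 on the plus strand, runs into a stretch of A, and it was seen almost only in NEXTflex. The snoRNA Snord2, which in the GRCm38 annotation overlaps an exon of the protein-coding gene Eif4a2, is at chr16:23109062-23109093 on the plus strand, and the snoRNA Gm25789, within an exon-overlapping stretch of Gas5, is at chr1:162968482-162968513 on the plus strand. Gm42418 is annotated as a lincRNA of 1831 bases, and RefSeq lists Rn18s-rs5, a name of the 18S ribosomal RNA series, among its synonyms. It begins at chr17:39984141 (mm9) for the sequence shown and overlaps no other gene.

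Reads of 28 to 32 nt took a larger share of the v1.5 libraries than of the TruSeq libraries of the same cells, and the largest share in liver prepared with TruSeq. In MIN6 they made up 1.04%, 1.60% and 0.670% of mapped reads in the 3 TruSeq libraries and 4.29%, 3.78% and 4.19% in the 3 v1.5 libraries. The groups did not overlap, and the means of 4.09% ± 0.27 and 1.10% ± 0.47 (SD, n = 3 each) differed 3.70-fold, or by 2.98 percentage points. That difference was 1.31 points without counts divided among several places, 1.78 with alignments without a mismatch only and 1.58 for 30 to 32 nt. A two-sided exact permutation test gave p = 0.1, the smallest that 3 against 3 libraries allow. NEXTflex MIN6 had 2.53% (95% Wilson interval 2.53% to 2.54%). TruSeq liver had 13.7% (13.6% to 13.7%) and NEXTflex liver, from the same RNA, 3.80% (3.79% to 3.81%). These intervals cover counting error only, and the single libraries have no replicate check. The TruSeq MIN6 replicates themselves differed more than 2-fold, with library 2 highest and library 3 lowest.

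The comparison of v1.5 with TruSeq in MIN6 was then made for single 5′ ends with edgeR's quasi-likelihood test, fitted over 21121 5′ ends of all lengths and chromosomes. In that fit 75.9% of all 5′ ends were called, 48.3% higher in v1.5 and 27.6% lower, at a Benjamini-Hochberg adjusted p under 0.05, with a median log2 difference of 0.88. Of the 6280 retained 5′ ends 2191 had enough reads in the 6 libraries to be tested, and of these 1587 were called higher in v1.5 and 139 lower, with a median log2 difference of 3.11. A 5′ end abundant in v1.5 alone could pass the filter on low counts, so this excess is partly set by the choice. Among the 634 retained 5′ ends with a mean of at least 10 reads in each of both groups, 251 were called higher and 80 lower with a median of 0.64, against 2871 higher and 3221 lower of all 9032 such 5′ ends with a median of -0.11 (an alternative setting). With TMM scaling, the median of all 5′ ends moved from 0.88 to 0.40, the retained calls became 1498 higher and 212 lower, and the higher share of all calls went from 63.6% to 55.6% (of the retained calls, from 91.9% to 87.6%). When counts divided among several places were left out, 498 of 1191 tested were called higher and 38 lower, beside 27.8% higher and 12.5% lower of all 9919 5′ ends.

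By RNA class, summed over the 9 libraries, tRNA fragments were the largest part. TruSeq liver gave more reads than any other library and so weighs most in these sums. Of the retained 5′ ends 1240 lay on tRNAs and held 47.5% of the reads, 387 on snoRNAs held 14.8%, 31 on Y RNAs held 3.33%, 368 on Gm42418 held 3.38% and 133 on snRNAs held 1.51%. A further 3708 5′ ends, with 25.6% of the reads, could not be placed on an annotated RNA from the bases known. In both NEXTflex libraries this unplaced part was larger than the tRNA part (37.8% against 23.0% in MIN6 and 52.5% against 19.9% in liver), and Y RNA made up 13.6% of the reads in TruSeq MIN6 (mean) and 0.0381% in TruSeq liver. Summed over the 9 libraries, fragments like tRNA-halves were thus the largest placed class but under 50% of the reads, and the rest was a mixture. In MIN6 the tRNA share of these reads was 50.2% to 54.9% in v1.5 and 32.7% to 35.9% in TruSeq, and 23.0% in NEXTflex. The difference of 18 percentage points between v1.5 and TruSeq fell to 8.37 with alignments without a mismatch only. In liver it was 61.3% with TruSeq and 19.9% with NEXTflex. Of 83 exact tests of shares, levels and first bases between v1.5 and TruSeq, 69 had groups that did not overlap, each at p = 0.1 and none under 0.12 after Benjamini-Hochberg adjustment.

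**Figure D1:**
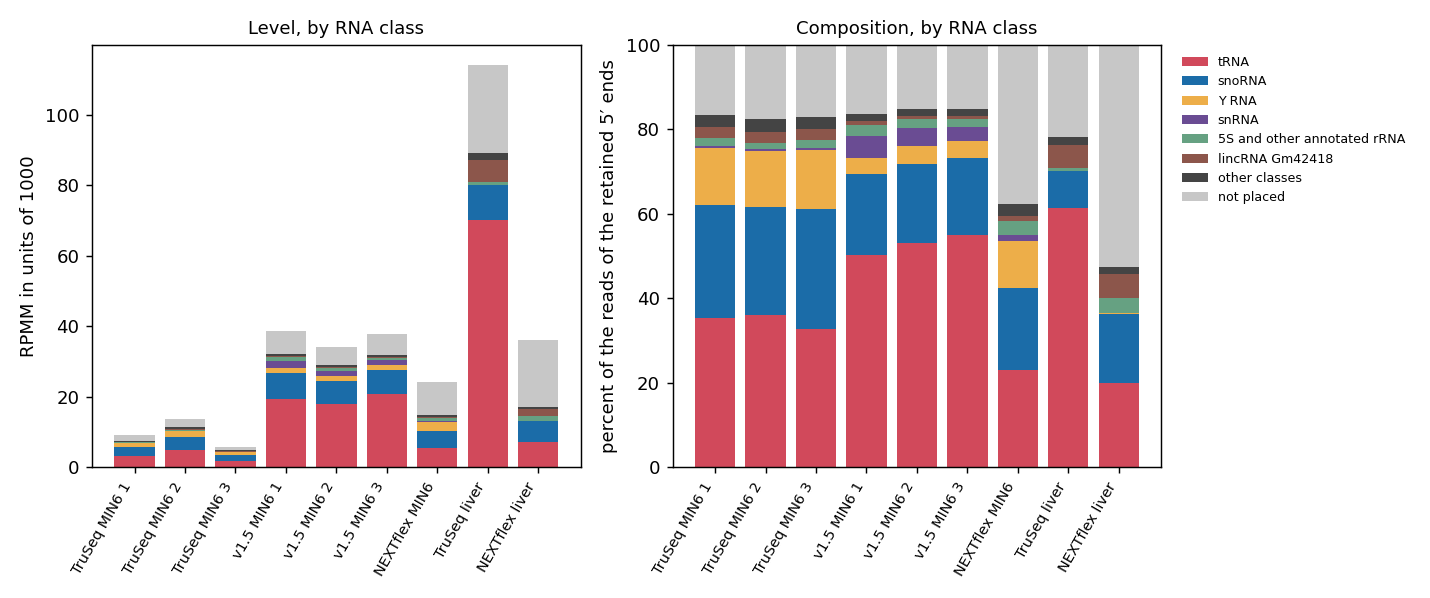
Reads of 28 to 32 nt at the retained 5′ ends in the 9 libraries by RNA class, as RPMM in units of 1000 (left) and as percent of these reads (right), 1 bar per library. The tRNA part is 50.2% to 54.9% in the v1.5 bars and 61.3% in TruSeq liver, whereas Y RNA nearly disappears in liver and the part that was not placed reaches 52.5% in NEXTflex liver.

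In RPMM, tRNA reads were at 1894 to 4956 in TruSeq MIN6 and 18083 to 20707 in v1.5, a ratio of means of 5.78. The snRNA ratio was larger, 48.5 (33 ± 15.1 against 1598 ± 374 RPMM), while the snoRNA ratio was 2.72 (2541 ± 962 against 6910 ± 498 RPMM). Y RNA and Gm42418 levels overlapped between the kits, with exact p = 0.7 for each (two-sided permutation test), although their shares of these reads were lower in v1.5. For Gm42418 the difference in share was -1.83 percentage points, and -0.0994 for 30 to 32 nt reads, where the groups overlapped (exact permutation p = 0.3). Annotated 5S rRNA was at 116 to 220 RPMM in TruSeq and at 714 to 1031 RPMM in v1.5. In the fit of single 5′ ends 781 of 1022 tested tRNA 5′ ends were called higher in v1.5 and 61 lower, 95 of 98 snRNA 5′ ends higher, 143 of 226 snoRNA 5′ ends higher and 24 lower, 49 of 54 of annotated rRNA higher, 26 of 45 on Gm42418 higher and 4 lower, and 7 of 18 Y RNA 5′ ends higher and 5 lower, beside 48.3% higher and 27.6% lower of all 5′ ends. The Y RNA shares were near this background.

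Most tRNA reads began at or close to the first base of the tRNA, and how exactly they did so differed between libraries. The share of tRNA reads that began at the first base itself was 28.1%, 32.8% and 21.9% in TruSeq MIN6 and 66.9%, 64.9% and 66.9% in v1.5, without overlap (exact p = 0.1, two-sided permutation). It was 77.8% in NEXTflex MIN6 and 97.1% and 98.1% in TruSeq and NEXTflex liver. Reads that began 1 or 2 bases before it or up to 4 after it made up 54.7% ± 3.3 in TruSeq MIN6 and 23.7% ± 1.1 in v1.5 (SD, n = 3). Only 10.1% of the v1.5 tRNA reads and 17.7% of the TruSeq MIN6 tRNA reads began further inside the tRNA, where 3′ tRNA-halves start, and in both liver libraries under 1% did. Whether reads that carry the CCA tail were lost in the alignment to the genome was not tested. The TruSeq kit gave 27.6% in MIN6 and 97.1% in liver, libraries that also differ in platform, source and the tRNAs they hold, whose part in this was not tested.

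Taking starts from 2 bases before to 4 bases after the first base as 5′ tRNA-halves, 18 of the 21 tRNA kinds of the fixed list (the amino acids and selenocysteine) had retained 5′ tRNA-halves, and tRNAs for Trp, Phe and selenocysteine had none. The tRNA-halves of 15 amino acids were higher in each v1.5 library than in every TruSeq MIN6 library, and none were lower in each. Val, His and Met overlapped. Lys tRNA-halves were at 515, 772 and 318 RPMM in TruSeq and 4890, 4212 and 4989 RPMM in v1.5, an 8.78-fold difference of means. Ala tRNA-halves were at 14.4, 17.6 and 7.85 RPMM against 3317, 3389 and 3450 RPMM, and Pro tRNA-halves at 32.9, 39.8 and 8.43 RPMM against 2429, 2227 and 2576 RPMM. These are ratios of means of 255 and 89.2, and Leu tRNA-halves, at 3.80, 4.34 and 2.17 RPMM against 1691, 1804 and 1730 RPMM, had the ratio 507. Ile (2.41 against 426 RPMM), Gln (5.33 against 386 RPMM), Cys (8.97 against 308 RPMM) and Arg (2.28 against 113 RPMM) tRNA-halves followed the same pattern in their means.

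Within 28 to 32 nt, Gly, Glu and Val tRNA-halves differed less between the kits than Lys, Ala, Pro and Leu tRNA-halves. Gly tRNA-halves were at 509.6, 1039 and 226 RPMM in TruSeq MIN6 and 1589, 1349 and 1890 RPMM in v1.5, a ratio of means of 2.72. Glu tRNA-halves were at 129, 200.4 and 67.0 RPMM against 622, 529 and 754 RPMM, a ratio of 4.8. At any length Glu had a ratio of 4.28. Val tRNA-halves overlapped, at 808 ± 322 against 919 ± 116 RPMM, as did His tRNA-halves at 574 ± 239 against 360.1 ± 32.8 RPMM (exact permutation p = 0.6 and 0.4, SD, n = 3). The rank order of the amino acids within 28 to 32 nt therefore differed: Val, Gly, His, Lys and Glu led in TruSeq MIN6, and Lys, Ala, Pro, Leu and Gly led in v1.5. At any length Val, Gly, Lys, Leu and His led in TruSeq MIN6, and Lys, Ala, Tyr, Leu and Gly in v1.5. Within 28 to 32 nt Gly came first in the 3 HiSeq libraries, but at any length Val (69173 RPMM) was above Gly (54657 RPMM) in TruSeq liver and Glu (5714 RPMM) above Gly (5194 RPMM) in NEXTflex liver. Gly made up 65.8% of the tRNA-halves of 28 to 32 nt in NEXTflex MIN6, 67.3% in TruSeq liver and 51.9% in NEXTflex liver, against 9.19% in v1.5 and 19.7% in TruSeq MIN6.

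**Figure D2:**
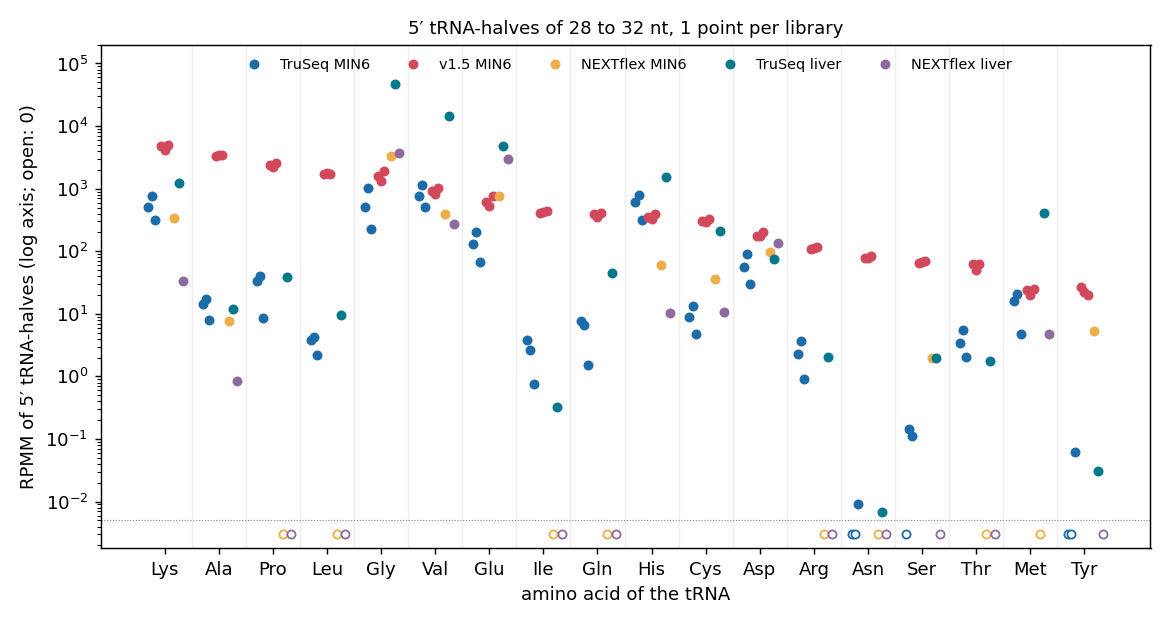
Levels of 5′ tRNA-halves of 28 to 32 nt by amino acid, in RPMM on a log axis, 1 point per library and open circles for 0, ordered by the v1.5 mean. The v1.5 points lie above all TruSeq MIN6 points for 15 of the 18 amino acids, and for Leu, Ile, Pro, Arg, Gln, Thr and Asn both NEXTflex libraries are at 0.

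Several tRNA-halves that were abundant in v1.5 were rare within 28 to 32 nt in every other library, with Leu, Ala, Pro and Ile as the clearest cases. In NEXTflex MIN6, Leu, Pro, Ile, Gln, Arg, Thr, Asn and Met tRNA-halves were at 0, and Ala tRNA-halves were at 7.55 RPMM. At any length Leu tRNA-halves were at 323 RPMM and Ile tRNA-halves at 40.4 RPMM in NEXTflex MIN6, and Leu tRNA-halves at 924 RPMM in TruSeq liver. A count of 0 is limited by 3 reads, and for Pro base 1 this makes TruSeq MIN6 at least 173-fold higher than NEXTflex MIN6. Lys tRNA-halves, by contrast, were found in all 9 libraries, from 33.1 RPMM in NEXTflex liver to 1220 RPMM in TruSeq liver outside the v1.5 group. Asp tRNA-halves lay in a narrower range outside v1.5, at 55.2, 89.8 and 30 RPMM in TruSeq MIN6, 98.1 RPMM in NEXTflex MIN6, 75 RPMM in TruSeq liver and 134 RPMM in NEXTflex liver.

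The 12 sequence groups with the highest mean RPMM over the 5 groups of libraries, the 3 highest in each group, and those with the largest differences were named by rule, 35 in all, of which 31 could be tested in MIN6. Of these 18 were called higher in v1.5 and 6 lower, where 75.5% of the 20025 features of that fit were called, 46.7% higher and 28.8% lower. The naming rule took 10 of these groups for being called with a large difference, so this count is in part set by the choice. Gly tRNA base 1 was at 391, 839 and 167 RPMM in TruSeq MIN6 and 1067, 893 and 1295 RPMM in v1.5, and the difference was not past the threshold (log2 1.22 ± 0.57 SE, edgeR adjusted p = 0.0948). Without TruSeq library 2 it was past it (edgeR adjusted p = 0.0105). Lys tRNA base 1 was at 26.1, 33.6 and 13 RPMM against 3090, 2612 and 3297 RPMM (log2 6.96 ± 0.43, adjusted p = 4.94e-05, edgeR). Leu tRNA base 1 was at 2.56, 2.63 and 1.66 RPMM against 1583, 1706 and 1650 RPMM (log2 9.51 ± 0.23, adjusted p = 4.91e-06, edgeR). For both, every v1.5 library lay far above every TruSeq library, and the spread within a kit was small beside the difference. The Lys call was lost when counts divided among several places were left out (edgeR adjusted p = 0.368).

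Val tRNA shows opposite signs at start sites 4 bases apart. Val tRNA base 1 was at 59.6, 106 and 29.2 RPMM in TruSeq MIN6 and 399.7, 336 and 487 RPMM in v1.5 (log2 2.65 ± 0.48, edgeR adjusted p = 0.00309). Val tRNA base 5 was at 469.6, 654 and 361 RPMM in TruSeq and 136, 143 and 151 RPMM in v1.5 (log2 -1.79 ± 0.22, edgeR adjusted p = 0.000625). The base 5 call was lost for 30 to 32 nt reads (edgeR adjusted p = 0.548) and without divided counts (edgeR adjusted p = 0.139). Val tRNA-halves as a sum overlapped between the kits. At any length Val tRNA base 1 was at 550, 574 and 529 RPMM in TruSeq MIN6 and 862, 786 and 753 RPMM in v1.5, a smaller difference. Of those TruSeq reads, 81.6% to 94.5% were under 28 nt. Over single 5′ ends of Val tRNA-halves, 12 of 54 tested were called higher in v1.5 and 11 lower, and of His tRNA-halves 10 of 35 were called higher and 14 lower. For Ala, Leu, Pro, Ile, Arg and Gln tRNA-halves all tested 5′ ends (65, 23, 29, 42, 24 and 23) were called higher in v1.5, beside 48.3% of all 5′ ends. With few TruSeq MIN6 reads, most of them passed the filter on low counts through v1.5, so these counts are partly set by the filter. Ala tRNA base 3, at 1171, 1238 and 1171 RPMM in v1.5, had 2 reads over the 3 TruSeq MIN6 libraries, a ratio of 15240 with a counting interval from 4219 to 125846, and 0 reads in the other 3 libraries.

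Part of this difference lay in read length. When reads of any length at the same 5′ ends were counted, Leu tRNA-halves were at 1305, 1305 and 1223 RPMM in TruSeq MIN6 and 4167, 4050 and 3619 RPMM in v1.5, a ratio of 3.09 in place of 507. At Leu tRNA base 1, 99.7% to 99.8% of TruSeq MIN6 reads were under 28 nt, with 26 nt the commonest length, and 41.8% to 48.6% of the v1.5 reads were 28 to 32 nt. Ile tRNA-halves went from a ratio of 177 to 2.78, Cys tRNA-halves from 34.3 to 2.99, Ser tRNA-halves from 781 to 4.06 and Lys tRNA-halves from 8.78 to 4.56. For Ala and Pro the difference was large at any length as well, with ratios of 30.5 and 68.0 in place of 255 and 89.2. At Ala tRNA base 3 the TruSeq reads were 97.5% to 98.7% of 14 nt, the shortest length in the files, and the v1.5 reads were 70.3% to 79.5% of 29 nt. Tyr tRNA-halves had the smallest share of v1.5 reads within 28 to 32 nt, 0.576%. At any length they were at 3996 ± 575 RPMM in v1.5 and 65.5 ± 2.6 RPMM in TruSeq MIN6 (SD, n = 3). At any length 16 of 18 amino acids were higher in every v1.5 library and none lower, with Val and His overlapping.

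**Figure D3:**
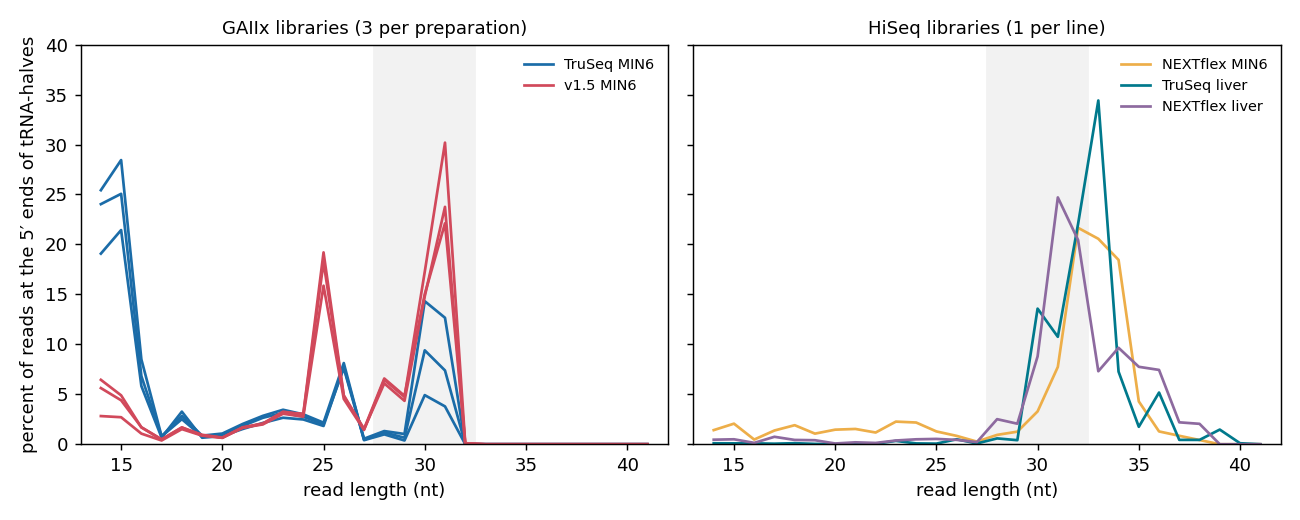
Percent of the reads at the 5′ ends of 5′ tRNA-halves by read length in nt, for the 6 GAIIx libraries (left) and the 3 HiSeq libraries (right), 1 line per library, with 28 to 32 nt shaded. TruSeq MIN6 has its highest points at 14 and 15 nt, v1.5 at 25 and 31 nt, and TruSeq liver at 33 nt, outside the range of the GAIIx reads.

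The shaded range thus cuts the population of tRNA-halves at different places. In TruSeq liver 26.7% of all reads at the retained 5′ ends were over 32 nt, and at Val tRNA base 1 it was 78.4%, with 33 nt the commonest length (66.2% of reads). Val tRNA base 1 was at 14221 RPMM in TruSeq liver within 28 to 32 nt and at 68067 RPMM at any length. Gly tRNA base 1 was less affected, at 45787 RPMM within the range and 52989 RPMM at any length. In NEXTflex MIN6, 48.6% of the Gly tRNA base 1 reads were over 32 nt, and in the GAIIx libraries such reads could not be present. Val tRNA base 5 in v1.5 lay across the lower edge of the range, since 27 nt was its commonest length (47.6% to 48.7% of reads) against 28 nt in TruSeq MIN6 (93.3% to 95%), but at any length it was still lower in v1.5 (312, 324 and 344 RPMM) than in TruSeq (493, 677 and 383 RPMM).

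**Figure D4:**
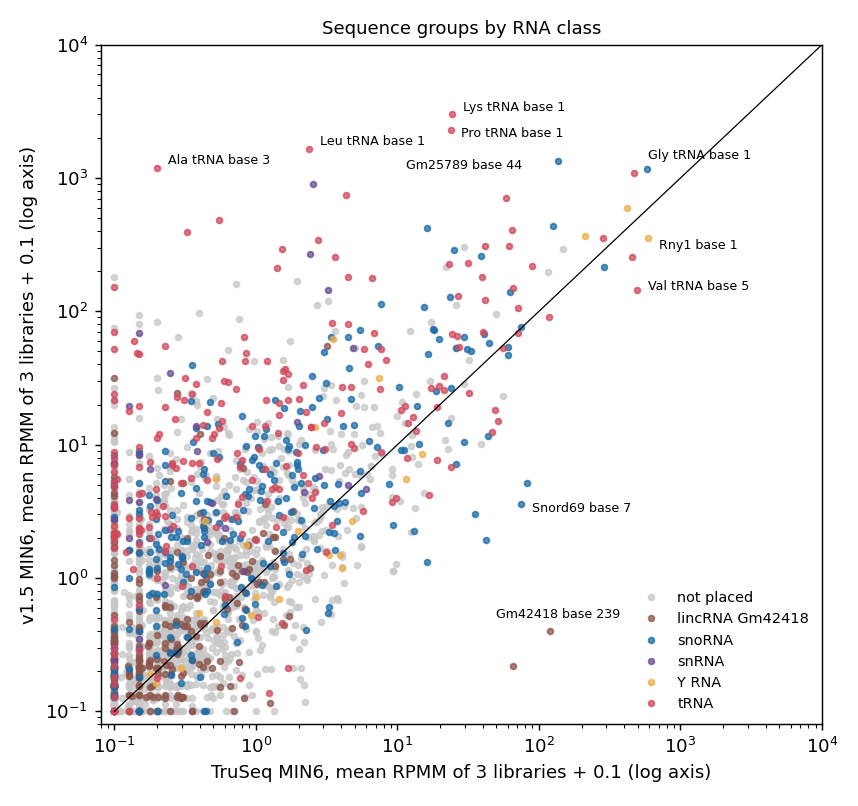
Mean level of each sequence group over 3 TruSeq MIN6 libraries (x) and 3 v1.5 MIN6 libraries (y), in RPMM plus 0.1 on log axes, for 6 of the RNA classes, with the line of equal level. The tRNA points at the upper left, such as Ala base 3 and Leu base 1, lie far above the line, whereas Gm42418 base 239 and Snord69 base 7 lie below it.

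Among the snRNAs, which splice pre-mRNA, U1 carried the difference. Reads on Rnu1a1, the U1 RNA of 164 bases, began at bases 134 to 136 and so came from its 3′ end. They were at 8.58, 9.64 and 5.40 RPMM in TruSeq MIN6 and 1665, 1204 and 1078 RPMM in v1.5. NEXTflex MIN6 had 139 RPMM, and TruSeq and NEXTflex liver had 11.6 and 16.1 RPMM. U5 (Rnu5g) was at 0.150, 0.438 and 0.249 RPMM in TruSeq against 55.4, 27.1 and 24.4 RPMM in v1.5, again without overlap, and U2 (Rnu2-10) was at 0.389 ± 0.336 against 3.52 ± 0.89 RPMM (SD, n = 3). By symbol, no retained 5′ end was placed on U4 or U6, on 7SK or on a vault RNA, but 7 snRNAs with 77 retained 5′ ends have another symbol and were not assigned to a kind. Of these 7, 6 were higher in every v1.5 library, beside 50.6% of all 5′ ends tested. From 97.8% to 98.3% of the v1.5 snRNA reads and 87.8% to 91.6% of the TruSeq MIN6 snRNA reads ended within 3 bases of the 3′ end of the RNA.

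The snoRNAs were the second annotated class in each MIN6 library and differed less. Of 40 C/D box snoRNAs identified by symbol, 27 were higher in every v1.5 library and 4 lower, and of 32 snoRNAs with another symbol 19 were higher and 2 lower. Over all 21121 5′ ends tested, 50.6% were higher in every v1.5 library and 29.9% lower in every one. No 5′ end was placed on an H/ACA box snoRNA by symbol. Gm25789 base 44 was at 133, 173 and 104 RPMM in TruSeq MIN6 and 1309, 1296 and 1389 RPMM in v1.5 (log2 3.29 ± 0.20, edgeR adjusted p = 4.6e-05), and at 449, 1012 and 631 RPMM in NEXTflex MIN6, TruSeq liver and NEXTflex liver. Snord2 base 37 was at 585, 861 and 305 RPMM against 1346, 1080 and 1081 RPMM (log2 1.00 ± 0.37, adjusted p = 0.0479, edgeR), a call that TMM scaling (edgeR adjusted p = 0.116) and leaving out TruSeq library 1 or any v1.5 library (0.0830 to 0.120) ended. Both were present in all 9 libraries, and 89.6% to 97.5% of the Snord2 base 37 reads had the same length of 29 nt in every library.

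Other snoRNA ends went the opposite way. Gm23212 base 1, like Gm25789 within Gas5, was at 85.2, 100.2 and 60 RPMM in TruSeq MIN6 and 5.08, 5.03 and 5.01 RPMM in v1.5 (log2 -4.02 ± 0.22, edgeR adjusted p = 3.49e-05). Snord69 base 7, within Gnl3, was at 68.8, 92.6 and 63.4 RPMM against 3.65, 3.77 and 2.98 RPMM (log2 -4.43 ± 0.21, adjusted p = 2.14e-05, edgeR). Snord50a base 2, within Snhg5, was at 38.4, 64.8 and 23.5 RPMM against 1.51, 2.01 and 1.93 RPMM (log2 -4.53 ± 0.44, adjusted p = 0.000236, edgeR), a call lost without divided counts (edgeR adjusted p = 0.390). Thus snoRNA ends of 1 host transcript, Gas5, had opposite signs.

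Y RNA reads came from both ends of the RNA. Of the 2 Y RNAs, Rny1 was at 1172, 1749 and 778 RPMM in TruSeq MIN6, at 1325, 1327 and 1371 RPMM in v1.5 and at 2179 RPMM in NEXTflex MIN6. The kits overlapped for it, while Rny3 was higher in every v1.5 library (51 ± 17 against 120.0 ± 12.9 RPMM, SD, n = 3). In TruSeq and NEXTflex liver Rny1 was at 28 and 26.5 RPMM, far under every MIN6 library. Within 28 to 32 nt the ends of Rny1 leaned in opposite directions without passing the threshold. Base 1 was at 543, 911 and 324 RPMM in TruSeq MIN6 and 409, 307 and 343 RPMM in v1.5 (log2 -0.75 ± 0.37, edgeR adjusted p = 0.115). Base 83 was at 409, 542 and 296 RPMM and 566, 617 and 600.0 RPMM (log2 0.52 ± 0.21, adjusted p = 0.0702, edgeR). At any length base 83 overlapped, at 868, 1069 and 732 RPMM in TruSeq MIN6 and 794, 850 and 819 RPMM in v1.5. Base 84, 1 base further in, was called higher in v1.5 (log2 0.80 ± 0.24, edgeR adjusted p = 0.0224), which TMM scaling ended (edgeR adjusted p = 0.145), and so did leaving out TruSeq library 1 or v1.5 library 2 or 3 (0.0598 to 0.0678). At any length base 84 overlapped between the kits, at 913, 1052 and 785 RPMM in TruSeq MIN6 and 827, 983 and 1020 RPMM in v1.5. Rny1 base 1 was past the threshold with TMM scaling (edgeR adjusted p = 0.0207) and without TruSeq library 3 (edgeR adjusted p = 0.0168), and base 83 without TruSeq library 2 (edgeR adjusted p = 0.00933). Reads that ended within 3 bases of the 3′ end of the Y RNA were 48.1% to 58.7% of Y RNA reads in TruSeq MIN6 and 62.2% to 70.9% in v1.5.

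The largest differences toward TruSeq among the named groups were on Gm42418. Gm42418 base 239 was at 115, 178 and 66.9 RPMM in TruSeq MIN6 and at 0.476, 0.335 and 0.0963 RPMM in v1.5, and it was at 1184 RPMM in TruSeq liver and at 0 in both NEXTflex libraries. Of these TruSeq reads 98.4% or more had the single length of 29 nt. With 11 reads in the 3 v1.5 libraries the ratio was 347 (counting interval 194 to 696), and the 3-read floor makes TruSeq liver at least 5678-fold higher than NEXTflex liver. At any length the same 5′ end had 22.8 RPMM in NEXTflex MIN6 and 119 RPMM in NEXTflex liver, where 63.4% and 67.9% of the reads were 25 nt long and the others were over 32 nt. The whole of Gm42418 nevertheless overlapped between the kits in MIN6 (248 ± 105 against 282 ± 48 RPMM, SD, n = 3) and was at 6141 and 2038 RPMM in TruSeq and NEXTflex liver. At chr5:147072600, a 5′ end not placed on an annotated RNA, levels were 126, 240.0 and 77.7 RPMM in TruSeq MIN6, 276, 247 and 352 RPMM in v1.5, 31.2 RPMM in NEXTflex MIN6, and 5715 and 1346 RPMM in TruSeq and NEXTflex liver. The sequence group Rn5s base 1 (6 copies of 5S rRNA retained) had no read of 28 to 32 nt in the 6 GAIIx libraries and was at 43.5 RPMM in NEXTflex MIN6 and 317 and 88.6 RPMM in TruSeq and NEXTflex liver. Other copies of the 5S rRNA had reads there, since 14.7% to 22.4% of the annotated rRNA reads in v1.5 and 0% to 5.71% in TruSeq MIN6 began within the first 3 bases.

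In liver both kits were used on the same RNA, and most tRNA-halves were lower with NEXTflex. Asp tRNA-halves were an exception, at 75 RPMM with TruSeq and 134 RPMM with NEXTflex, and Glu tRNA-halves were at 4784 and 2967 RPMM. With TruSeq and NEXTflex, Gly tRNA base 1 was at 45787 and 3006 RPMM, a ratio of 0.0657 (ratios have 1 RPMM added to both values). Val tRNA base 1 had a ratio of 0.0185 and Lys tRNA base 1 of 0.0218. Of 48 tRNA sequence groups with at least 10 RPMM in either library, 34 were more than 10-fold lower and 1 more than 10-fold higher with NEXTflex, with a median ratio of 0.0471. Among all 7070 5′ ends of any length at this level, 35.7% were lower and 24.2% higher with a median of 0.493. TruSeq liver weighs most in the choice of 5′ ends, so the excess of lower tRNA groups is partly set by it. Of 99 snoRNA groups 37 were lower and 9 higher, and of 25 groups of 5S and other annotated rRNA 2 were lower and 11 higher. Over all 1156 retained groups, 368 were lower and 356 higher. Scaled to the nuclear 28 to 32 nt reads in place of mapped reads, 88 were lower and 531 higher, but the groups that pass the limit of 10 are then not the same. With 1 library of each kind these values have no replicate check.

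In MIN6, where the NEXTflex library also differs in platform and facility, the direction was not the same. With NEXTflex, Gly tRNA base 1 was at 2559 RPMM, 5.49 times the TruSeq mean, and Val tRNA base 1 at 274 RPMM was 4.18 times the TruSeq mean. Of 70 tRNA sequence groups 19 were more than 10-fold higher with NEXTflex and 13 lower. Over all 504 retained groups 287 were higher and 29 lower with a median ratio of 11.3, beside 25.1% higher and 30.2% lower of all 4929 5′ ends, with a median of 0.523. Scaled to the nuclear 28 to 32 nt reads, 489 groups were higher and 120 lower, but on that scale more groups than these 504 pass the limit of 10. Of the 287 groups higher on the scale of mapped reads, most were not placed, with 210 of 285 higher. Snord45b base 36 was at 242 RPMM in NEXTflex MIN6 and at 0 to 0.146 RPMM in TruSeq MIN6, where 2 reads in all gave a ratio of 3092 (counting interval 856 to 25536). The A-rich chr14:30256408 was at 443 RPMM in NEXTflex MIN6 and 728 RPMM in NEXTflex liver and under 1 RPMM in each of the other 7 libraries.

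Between the sources, liver prepared with TruSeq had far more Gly and Val tRNA-halves and far less Y RNA than MIN6 prepared with TruSeq. Of 55 tRNA sequence groups 16 were more than 10-fold higher in liver and 2 lower, with a median ratio of 1.38, and Ala tRNA-halves (12 against 13.3 RPMM) and Asp tRNA-halves (75 against 58.3 RPMM) were close in level. Gly tRNA base 1 in liver was 98.1 times and Val tRNA base 1 216 times the MIN6 mean, whereas Leu tRNA base 1 was at 7.10 RPMM in liver and Snord2 base 37 had a ratio of 0.580. Of 94 Gm42418 groups 80 were more than 10-fold higher in liver and none lower, and of 5 Y RNA groups 3 were lower and none higher, with a median ratio of 0.0324. Over all 646 groups, 415 were higher in liver and 10 lower, with a median ratio of 12.5, beside 37.8% higher and 19.3% lower of all 6637 5′ ends with a median of 4.23. Scaled to the nuclear 28 to 32 nt reads, the direction turned, with 33 higher and 129 lower, but the groups that pass the limit of 10 are then not the same. Fragments of the albumin mRNA, a hepatocyte transcript, were at 46.8 RPMM in TruSeq liver and 29.4 RPMM in NEXTflex liver and at 0 in all 7 MIN6 libraries. In tissue, fewer cells of a type and less RNA per cell cannot be told apart. Reads at a nuclear place that matches the mitochondrial tyrosine tRNA (mt-Ty base 1) were at 585 RPMM in TruSeq liver and at 42.9 to 50.9 RPMM in v1.5. They were at 0.415 to 2.12 RPMM in TruSeq MIN6 and at 0 in both NEXTflex libraries. Their count in TruSeq liver, 9641.5, was not whole, so some had been divided with another place. Whether they came from mitochondrial RNA was not tested.

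Mismatches to the genome were more frequent in v1.5, in tRNA reads and in some other classes. Of tRNA reads at the retained 5′ ends, 40.5% to 43.7% carried a mismatch in v1.5 and 9.95% to 12.4% in TruSeq MIN6, 11.6% in NEXTflex MIN6, 19.4% in TruSeq liver and 6.42% in NEXTflex liver. For snoRNA reads the shares were 3.02% to 6.82% in v1.5 and 2.52% to 3.83% in TruSeq MIN6, which overlap. Those of 7SL RNA overlapped too. For snRNA reads the order was reversed (7.49% ± 1.46 against 15.7% ± 2.4, SD, n = 3), as it was for miRNA hairpins. Without overlap, v1.5 had the higher mean for Y RNA (40.6% against 25.97%), annotated rRNA (24.96% against 11.9%) and Gm42418 (8.29% against 2.91%). This also held for reads not placed (25.5% against 22.1%) and for all retained 5′ ends together (30.6% against 14.4%). Counted over the first 25 nt, the order turned for hairpins and for reads not placed. The mismatches of tRNA reads sat at a few bases of a few tRNAs. These were 33 combinations of a base and the letter read in its place with at least 0.5% of a library's tRNA reads. Whether a mismatch reflects a modified base, a difference between gene copies or a read assigned to a near copy was not tested.

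**Figure D5:**
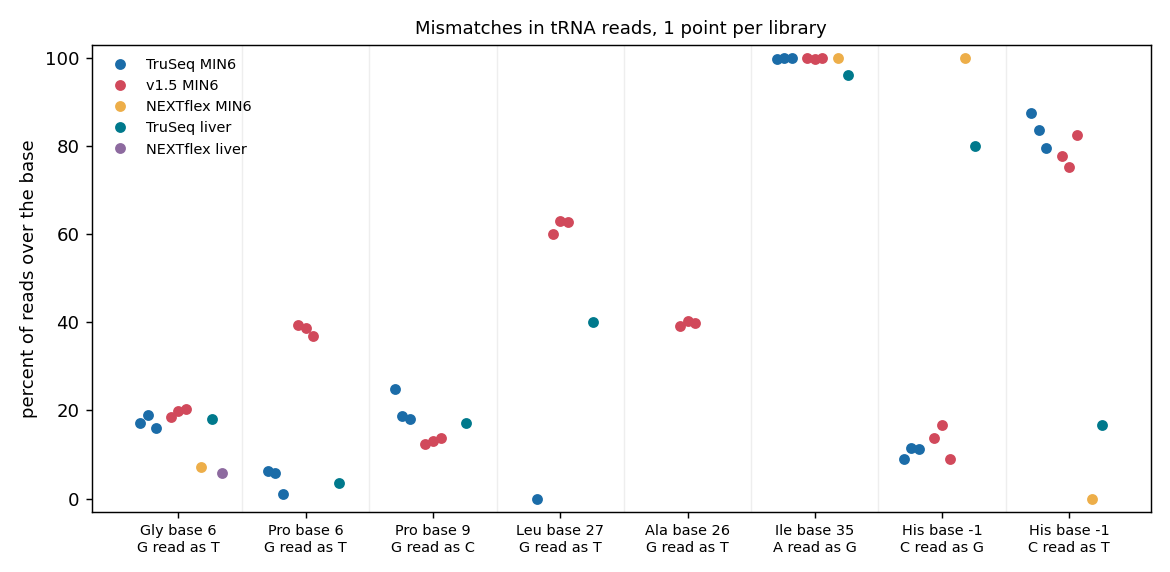
Percent of reads over a tRNA base that carry the stated mismatch, 1 point per library, for sites named in the text and with bases counted from 1 at the first base of the tRNA gene. Ile base 35 is read as G in 96.1% or more of the reads of every library with reads, whereas Leu base 27 and base 26 of the Ala tRNA base 3 group have points almost only in v1.5.

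Ile tRNA base 35, the first base of the anticodon AAU, was read as G in 99.7% to 100% of the MIN6 reads that began at base 28 and in 96.1% of those in TruSeq liver. In this tRNA that adenosine is known to be converted to inosine, which is read as G. Gly tRNA base 6 was read as T in 17.1%, 18.9% and 15.9% of the reads in TruSeq MIN6 and 18.5%, 20% and 20.4% in v1.5. This site overlapped slightly between the kits, was at 18% in TruSeq liver, and was at 7.25% and 5.90% in NEXTflex MIN6 and NEXTflex liver. At Leu tRNA base 27 in v1.5, 60.1%, 63.0% and 62.8% of the reads had T and 18.3%, 17.7% and 16.6% had C in place of G. TruSeq liver, with 117 reads, had T in 40.2% (95% Wilson interval 31.7% to 49.2%), and the one TruSeq MIN6 library with 20 reads had T in 0% (0% to 16.1%), while the other two had 17 and 18 reads and no value was taken. At base 26 of the tRNA, reads of the Ala tRNA base 3 group had T in 39.3%, 40.2% and 39.9% and C in 29.5%, 29.9% and 29.4% in v1.5. Guanosine near this place of many tRNAs carries 2 methyl groups, which is known to disturb reverse transcription. The group Ala tRNA base 1 had no guanosine at base 26, since its genomic base there was inferred as C. There T was read in 18.6%, 18.9% and 12.1% in TruSeq MIN6, 57.4%, 60% and 58.6% in v1.5, 50.7% in TruSeq liver and 0% in NEXTflex MIN6. Base 28 of this group was read as C in place of T in the same shares in TruSeq MIN6 and TruSeq liver, and in 58.7%, 60.3% and 58.7% in v1.5. Whether the 2 sites are linked was not tested.

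At Pro tRNA bases 6 and 9 the kits moved in opposite directions. Base 6 was read as T in 6.33%, 5.85% and 1.13% of the TruSeq MIN6 reads and in 39.3%, 38.6% and 36.9% of the v1.5 reads, without overlap. Base 9 was read as C in 24.8%, 18.8% and 18.1% and in 12.4%, 13.1% and 13.7%, also without overlap. Both differences had the smallest exact permutation p that 3 libraries of each kit allow (0.1). His tRNA is known to gain a guanosine before its first base after transcription, and the genome has C there. Reads that began at that place had G in 9.09% to 11.4% in TruSeq MIN6 and 8.92% to 16.8% in v1.5, but in 100% of 272 reads in NEXTflex MIN6 and 80.0% in TruSeq liver. They had T in 79.6% to 87.6% in TruSeq MIN6, 75.2% to 82.5% in v1.5, 0% in NEXTflex MIN6 and 16.6% in TruSeq liver. Arg tRNA base 32, which carries a methylated cytidine in some arginine tRNAs, was read as T in 81.0% to 86.7% of TruSeq MIN6 reads and 81.9% to 83.0% of v1.5 reads that began at base 27.

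The first base of the reads also differed between kits, as far as it was known. C was the 5′ base of 31% to 33.4% of the reads at retained 5′ ends in TruSeq MIN6 and of 13.8% to 14.4% in v1.5. G was that of 26.1% to 29.7% and of 48.6% to 49.4%, T of 18% to 19.5% and of 18.1% to 19.3%, and A of 10.2% to 10.7% and of 7.93% to 9.05%, so C, G and A differed without overlap and T did not. In TruSeq liver G made up 65.2% and C 7.02%. The 5′ base was unknown for 10.6% to 11% of the TruSeq MIN6 reads, 9.53% to 10.2% of the v1.5 reads and 30.6% to 32.2% of the reads of both NEXTflex libraries, so the NEXTflex values (G 28.9% in MIN6 and 28.2% in liver) are lower bounds.

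Some 5′ ends with a large difference within 28 to 32 nt lie on no annotated RNA that could be recognised. At chr10:12642451 on the minus strand 167, 185 and 195 RPMM were found in v1.5 and no read in TruSeq MIN6, which is at least 1544-fold higher in v1.5 by the 3-read floor over the group. At any length it was at 179, 195 and 201 RPMM in v1.5 and at 11.6, 11.8 and 10.4 RPMM in TruSeq MIN6, where all reads were under 28 nt. At chrX:11924003 on the plus strand 72.7, 84.3 and 83.1 RPMM were found in v1.5 and 1 read in TruSeq MIN6. The 5′ end at chr2:158313394 on the plus strand was at 68.8 RPMM in 1 v1.5 library and at 0 in the other two, with 54.9, 73.2 and 39.2 RPMM in TruSeq MIN6. The log2 difference there was -1.28 ± 2.02 (edgeR adjusted p = 0.586). Without v1.5 library 1 it was past the threshold (edgeR adjusted p = 0.000540).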

How the data were processed

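The authors trimmed 3′ adapters with cutadapt (for NEXTflex, they removed the random bases at both read ends), aligned the reads to mm9 with Bowtie (versions not given in the sources used here), and deposited each distinct alignment with its expected count, where reads that align equally well to several places had been split between these. The sums of these expected counts exceed the study's numbers of mapped reads, which served as the scale for RPMM, by 0.264% to 8.41%, and no reason was found. Reads were not trimmed or aligned again, and their number of PCR copies is unknown.

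Lengths were read from the coordinates, with 1 base added for alignments marked exact. Genomic bases were inferred from the mismatches. By sequence, 5′ ends were compared with 141767 transcripts of the GENCODE M21 annotation (GRCm38). By the spacing of genes, they were compared with 408 tRNA genes of RefSeq. A tRNA gene was placed in mm9 at an offset from its annotated position that several genes shared. Of 1205 5′ ends matched by sequence, 90% lay on the same chromosome as the match, and 307 of the tRNA genes were placed. Annotation with RefSeq gave the synonym of Gm42418. 5′ ends equal over 28 bases formed a sequence group. No column of per-sample values was left unused.

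v1.5 and TruSeq MIN6 (n = 3 each) were compared with edgeR 4.0.16 in R 4.3.3 (quasi-likelihood test) on counts rounded to whole numbers, with mapped reads as library sizes, no replicate block, and at least 50 reads over the 6 libraries. Features were 5′ ends by length class, and p-values were adjusted over all of them. Standard errors are the log2 difference divided by the square root of F. Levels and shares were compared by two-sided exact permutation over libraries (SciPy 1.17.1). Single libraries were compared by ratios with 1 RPMM added, for groups with at least 10 RPMM in either. A 0 was set to a floor of 3 reads over the group, and intervals cover counting error at 95%. DESeq2 1.42.0, other scalings, filters and length ranges, alignments without mismatch, whole counts only, and leaving out libraries were alternatives. Python 3.11.15, pandas 2.3.3, NumPy 2.4.6 and Matplotlib 3.10.9 were used. Libraries of a kit differed by more than counting error (chi-square over degrees of freedom, 1.54 to 8.93). In data simulated for the fit of 21121 5′ ends, 17 of 50 features changed 4-fold up, 7 of 50 changed 4-fold down (0.25) and 0 of 50 changed 2-fold in each direction were recovered, and 6 of 20921 unchanged ones were called.

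The retained 5′ ends and the RNA lists were chosen with earlier results of these data known. Named groups are the 12 with the highest mean RPMM over the 5 groups of libraries, the 3 highest in each, the 5 with the largest difference in each direction among called groups with at least 10 RPMM, and the 3 largest ratios in each direction of each single-library comparison. RNAs outside these groups (Rnu1a1, Rnu5g, Rnu2-10, Rny3, Alb and the further tRNA sites with mismatches) are members of the fixed lists or were chosen after their values were seen. Some of the named groups are not reported here.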

Additional observations from a re-analysis of the deposited data

Results flagged for a closer look

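Within 28 to 32 nt, NEXTflex was for 6 named sequence groups at least 2-fold lower than TruSeq in liver and at least 2-fold higher than each of the 3 TruSeq MIN6 libraries (1 RPMM added). The limit of 2-fold was a choice, and groups with smaller opposite differences, such as Lys tRNA base 1 and Gm25789 base 44, are not counted. The difference between liver and MIN6 was not tested, since there is 1 NEXTflex library of each. Gly tRNA base 1 had a ratio of 0.0657 in liver and 5.49 in MIN6 (against the TruSeq mean, 1 RPMM added), and Val tRNA base 1 had 0.0185 and 4.18. The Y RNA end Rny1 base 84 had 0.364 and 3.19, Gm42418 base 784 had 0.00206 and 3.48, and the 5S rRNA group Rn5s base 1 had 0.282 and 44.5. Low values depend on the 1 RPMM added. TruSeq MIN6 had no read of Rn5s base 1, and the 3-read floor makes NEXTflex MIN6 at least 370-fold higher. NEXTflex liver had no read of Gm42418 base 784, and the floor makes TruSeq liver at least 2318-fold higher. The 5′ end at chr5:147072598 on the plus strand had 0.338 and 10.5. In liver Rny1 base 84 rested on 32 reads with TruSeq and 1 with NEXTflex, a ratio of 27.9 without the addition (counting interval 4.66 to 1137).

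Reads longer than 32 nt lie outside the rule and outside the reach of the GAIIx libraries. At the retained 5′ ends they made up 3.19% of the reads of any length in NEXTflex MIN6, 26.7% in TruSeq liver and 3.50% in NEXTflex liver, where the 6 GAIIx libraries have none.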

How the results depend on the processing

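The share of mapped reads stayed higher in v1.5 in the alternatives run and on leaving out each library (2.98 points, 1.31 to 3.23). The count of 5′ ends called was 1726 and lay between 1640 and 1807 on leaving out each library (higher 1525 to 1696, lower 111 to 183). Calls lower in v1.5 went from 139 to 212 with TMM factors and 211 with no filter. With a mean of 10 reads in each group 331 were called (251 higher, 80 lower), fewer being tested. Without fractional counts 536 were called (498 and 38), and the share not placed turned to 2.33 points higher in v1.5. With exact alignments only, it turned to 0.510 points higher and the miRNA hairpin share to 0.0342 points higher. Of the named groups, 15 were called for 30 to 32 nt. Gm42418 base 784, not called, turned to a log2 difference of 0.016 with the block and 0.0029 with exact alignments, and ranged from -0.68 to 0.82 on leaving out a library, the highest without TruSeq library 2. Groups past 10-fold between NEXTflex and TruSeq in liver were 92 (28 higher, 64 lower) with 5 RPMM added, and 619 (531 and 88) when scaled to nuclear 28 to 32 nt reads. In MIN6 they were 22 (16 and 6) and 609 (489 and 120). Between TruSeq liver and MIN6 they were 85 (81 and 4) and 162 (33 and 129), and 16 were lower with 0.1 RPMM added. The scaling to nuclear 28 to 32 nt reads thus turned the excess of higher groups in liver over MIN6 into an excess of lower ones. It also changed which groups pass the limit of 10. Counted over the first 25 nt, the v1.5 difference in reads with a mismatch turned to 5.95 points for miRNA hairpins, -0.16 for 7SL RNA and -4.45 for reads not placed, and for snoRNA it ranged from -0.22 to 1.68 on leaving out a library, the lowest without v1.5 library 1. The causes were not tested. In the single-gene results, 386 alternatives kept side and sign, 13 became called and 19 lost the call. The replicate block gave 1748 calls (1622 higher, 126 lower) and 25 named groups. Same-numbered libraries had correlated deviations of 0.0744, -0.105 and -0.124, so the numbers were not taken to pair them, and only TruSeq library 1 correlated best with its own number. In the block Rny1 base 83 became called (edgeR adjusted p = 0.0413). In simulated data no 2-fold change was recovered, and RNAs over 32 nt cannot be held by GAIIx reads.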

Other observations

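Other small RNAs at these 5′ ends were less abundant. The RNA of RNase MRP, Rmrp, which takes part in the maturation of ribosomal RNA, was at 44.4, 77.8 and 24 RPMM in TruSeq MIN6 and 105, 87.4 and 106 RPMM in v1.5, without overlap. The signal recognition particle RNA Rn7s1 was at 68.3, 95.9 and 38.6 RPMM in TruSeq MIN6, 221, 148 and 142 RPMM in v1.5 and 617 RPMM in TruSeq liver. Of the 7SL RNA reads, 92.0% to 93.2% ended within 3 bases of the 3′ end in TruSeq MIN6, 83.9% to 88.8% in v1.5 and 13% in NEXTflex MIN6. Snord104 and Snord118 overlapped between the kits in MIN6 (84.4 ± 35.3 against 73.4 ± 6.6 and 63.5 ± 29.2 against 55.9 ± 2.7 RPMM, SD, n = 3) and were at 1242 and 1128 RPMM in TruSeq liver and 178 and 417 RPMM in NEXTflex liver.

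Reads of 28 to 32 nt on miRNA hairpins are longer than the mature miRNA, and 94.7% to 95.7% of them in TruSeq MIN6 and 86.3% to 88% in v1.5 carried a mismatch. Mir182 was at 54.9, 79.7 and 44.1 RPMM in TruSeq MIN6 and 65.2, 62.4 and 71.1 RPMM in v1.5, which overlap, and at 3.58 and 0 RPMM in TruSeq and NEXTflex liver. Mir122, the hairpin of the hepatocyte miRNA, was at 0 in all 7 MIN6 libraries and at 1.82 and 19.9 RPMM in TruSeq and NEXTflex liver. Mir181b-2 was at 98.9 RPMM in NEXTflex MIN6 and at no more than 1.93 RPMM in any other library.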
